A study of Mus musculus with 2 samples.

Results

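The genes described here are the 3 transforming growth factor beta (TGF-beta) ligands Tgfb1, Tgfb2 and Tgfb3, the type I and type II receptors Tgfbr1 and Tgfbr2, the integrin subunits Itgav and Itgb8, the feedback inhibitor Smad7 and the induced matrix gene Tgfbi. They were picked by symbol and are 9 of the 32285 mouse genes in the count tables. Their levels were followed across marker-gated cell classes of 2 single-cell RNA libraries from mouse brains that carried a GL261 tumour, harvested 24 days after implantation. GL261 is a mouse glioma line used as a model of glioblastoma, and the series asks about T-type calcium channels of the tumour's surroundings. The first library is labelled C57BL/6 wild type and the other Cav3.2 knockout, Cav3.2 being the T-type channel encoded by Cacna1h, and both carried the same tumour line. The knockout label (genotype Cacna1h-/-) belongs to the host mouse, and the Cacna1h alleles of the implanted cells are not given in the sources used here. There was 1 library per label, and the number, sex and age of the animals behind each are not given in the sources used here.

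TGF-beta is secreted in a latent form, held inactive by its own propeptide, and is tethered to matrix or cell surface proteins until it is released. The integrin made of the alpha v subunit (Itgav) and the beta 8 subunit (Itgb8) is a main activator of latent TGF-beta. Freed ligand binds the type II receptor, which phosphorylates the type I receptor and through it the Smad proteins. In the brain the pathway is known for maintaining the mature state of microglia, and in tumours for restraining T and NK cells.

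The library labelled wild type held 7382 barcodes with 54567114 UMIs (unique molecular identifiers, each counting 1 captured transcript), and the library labelled knockout 8369 barcodes with 103281480 UMIs. The filters left 3110 and 6575 cells, whose median UMI numbers were 12522 and 11071. Cacna1h itself was higher under the knockout label. In the wild type library 13 UMIs were counted and in its knockout counterpart 168, a level 6.67-fold higher in the latter (exact 95% interval 3.8 to 12.8). These are counts of 3' ends over all kept cells, tumour cells included, and do not tell whether the transcripts are whole. The cause was not tested. The libraries are therefore named by their labels throughout, and every direction is a direction between labels. Host cells also differed in sex-linked RNA: no host cell of the 5 large host classes had Xist UMIs without Y-linked ones under the wild type label, against 63.7% to 78.9% of the cells of each class under the knockout label. Cells with Y-linked and no Xist UMIs, taken alone below as an alternative, were fewer under the knockout label except for microglia. They were 104 and 110 microglia, 288 and 69 monocytes and macrophages, 257 and 44 dendritic, 547 and 285 T and 201 and 75 NK cells. With 1 library per label no test was possible, and all intervals below cover counting error only. Of the barcodes 21 occurred in both libraries, 7 of them among the kept cells.

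Each cell was put in a class by the share of the class's marker genes that had a UMI. This placed 2539 cells (81.6%) of the first library and 5566 (84.7%) of the other, while 144 and 311 of these lay near the limit of the rule and 188 and 359 cells fell just short of it. All markers were highest in their own class for microglia, dendritic, T, NK, plasmacytoid dendritic, B, oligodendrocyte, neuroblast and endothelial cells in both libraries. The same markers had set the classes, so this was largely built in and is no independent check of them. Of the 12 monocyte/macrophage markers 9 and 8 were highest in that class. Of the 10 tumour markers only 5 were highest in tumour-gated cells with the wild type label and 8 with the knockout label, the others being higher in neuroblasts or oligodendrocytes. Cells with both microglia and macrophage markers, 223 and 257 in number, were kept apart. In each library 6 classes held 100 cells or more, namely tumour (672 and 1058 cells), microglia (121 and 468), monocyte/macrophage (336 and 623), dendritic (288 and 394), T cells (638 and 1630) and NK cells (259 and 622). Levels are given as CPM, the UMIs of the gene per 1000000 UMIs of the class, first under the wild type label and then under the knockout label.

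Across these 6 classes the highest class of a gene was the same in both libraries for 9 of the 9 genes, against 78.2% of the 12546 genes that could be compared. Tgfb1 was highest in NK cells. Tgfb2 and Tgfb3 were highest in tumour cells, Tgfbr1, Tgfbr2 and Smad7 in microglia, Itgav and Itgb8 in T cells, and Tgfbi in monocytes and macrophages.

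**Figure D1:**
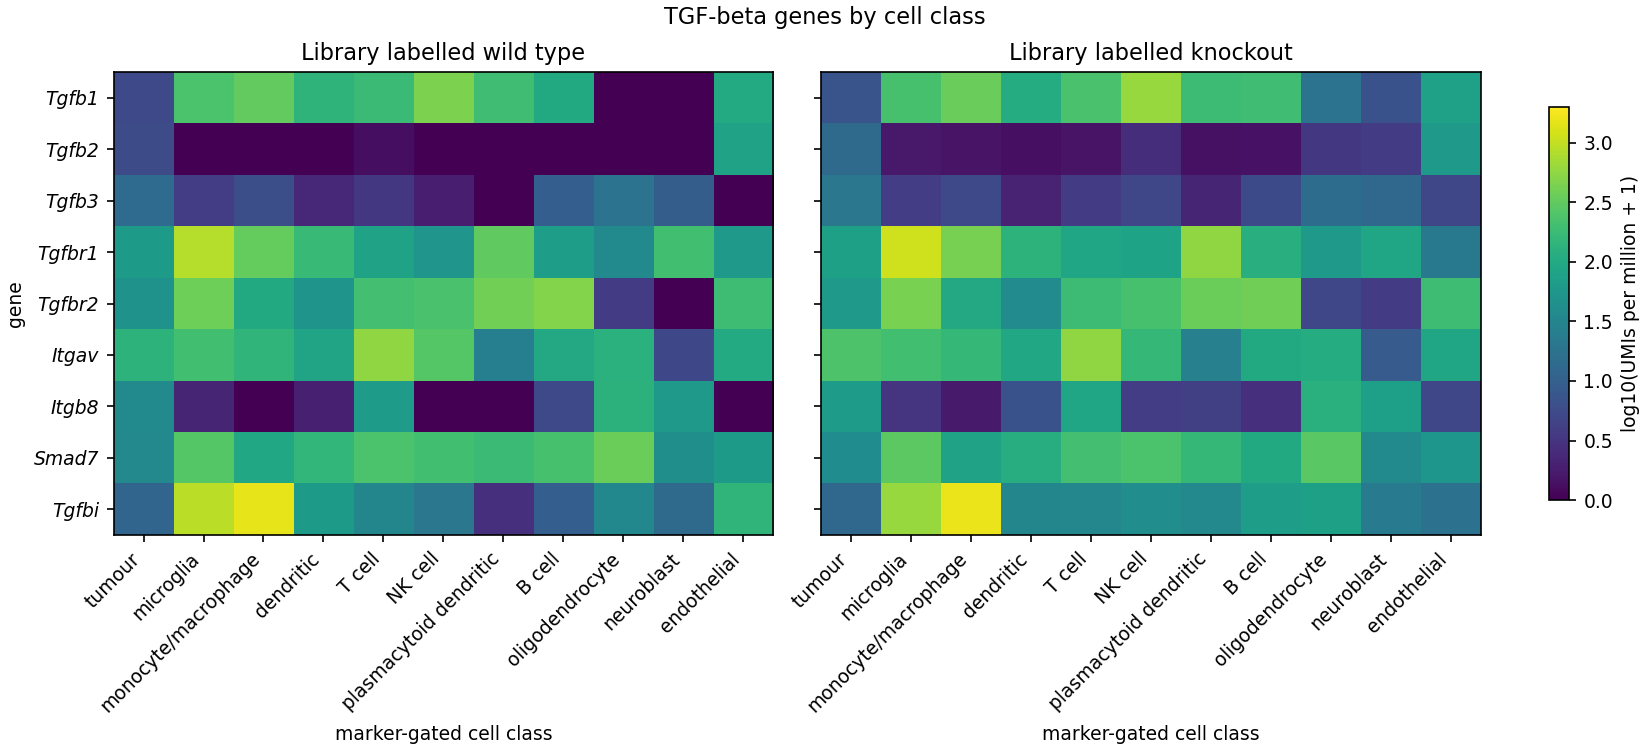
Level of each of the 9 genes (vertical axis) in 11 marker-gated cell classes (horizontal axis), as log10 of CPM plus 1 on the colour scale, with 1 panel per library. The brightest fields are Tgfbi in monocytes and macrophages (1511 and 1574 CPM) and Tgfbr1 (868 and 1137 CPM) and Tgfbi (913 and 615 CPM) in microglia. Tgfb2 is dark outside tumour and endothelial cells.

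Among the ligands, Tgfb1, the isoform most tied to immune regulation, was highest in NK and myeloid cells. In NK cells it stood at 441 CPM (exact Poisson 95% interval 414 to 470) and 614 CPM (591 to 637). Monocytes and macrophages had 323 CPM (306 to 340) and 352 CPM (340 to 366). NK cells were thus highest and the monocyte/macrophage class the next in both libraries, with intervals that did not overlap. Within the latter class, monocytes had 417 and 425 CPM and macrophages 286 and 264 CPM, a difference of 1.46-fold and 1.61-fold. Under the wild type label the monocyte level thus lay within the interval of NK cells. In clusters of all cells, made without the 9 genes, one led by Lyz2 and Chil3 had 692 CPM (604 to 789) and 577 CPM (535 to 621). The NK cluster had 450 CPM (420 to 481) and 600 CPM (579 to 622). Among the large gated classes microglia (234 and 220 CPM) and T cells (179 and 222 CPM) followed, and their order differed between the libraries. Among T cells, CD8 T cells were lowest, at 156 and 161 CPM, while conventional CD4 T cells had 237 and 266 CPM and regulatory T cells 208 and 264 CPM. Dendritic cells stood at 137 CPM (126 to 148) and 109 CPM (101 to 118).

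Tumour cells carried little Tgfb1. Their level was 4.3 CPM (3.49 to 5.25) and 6.28 CPM (5.44 to 7.21), 0.974% and 1.02% of that in NK cells. A Tgfb1 UMI was found in 10.1% and 12.1% of tumour cells, which are deep at medians of 30987 and 26406 UMIs, and in 78% and 79.6% of NK cells, whose medians were 6036 and 6452 UMIs. With every cell thinned to 2000 UMIs the shares were 0.747% and 1.26% in tumour cells against 48.1% and 54.8% in NK cells. Oligodendrocytes and neuroblasts had no Tgfb1 UMI in the library labelled wild type (32 and 21 cells, upper limits of the intervals 10.4 and 15.7 CPM) and 16.8 and 5.81 CPM under the knockout label. Over all kept cells, the monocyte/macrophage class held 20.8% and 17.1% of the Tgfb1 UMIs, T cells 16.6% and 24.4% and NK cells 14.3% and 17%.

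Tgfb2, an isoform of development and of the nervous system, was highest in the cells of vessels. Endothelial cells, which numbered only 22 and 32, stood at 78.8 CPM (52.8 to 113) and 60.9 CPM (34.1 to 100). Mural cells and fibroblasts, with 16 and 11 cells, had 78.8 CPM (47.5 to 123) and 195 CPM (124 to 293). Tumour cells had 4.61 CPM (3.77 to 5.59) and 13 CPM (11.8 to 14.3), and held 42.4% and 68.7% of all Tgfb2 UMIs of the kept cells. In the other 5 large classes Tgfb2 was at most 0.319 CPM under the wild type label, with 0 UMIs in microglia, monocytes and macrophages, dendritic cells and NK cells, and at most 1.72 CPM under the knockout label. The vessel-associated classes were thus highest in CPM, and the tumour held the most UMIs in total of the gated classes.

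Tgfb3 was low in the large classes. Mural cells and fibroblasts had 62.2 CPM (34.8 to 103) and 8.49 CPM (0.215 to 47.3), the latter from 1 UMI. Tumour cells had 13.1 CPM (11.6 to 14.7) and 19.1 CPM (17.6 to 20.7), and held 69.1% and 67.9% of the Tgfb3 UMIs. Oligodendrocytes had 16.8 CPM (6.18 to 36.6) and 13.6 CPM (7.92 to 21.8), levels that could not be told from those of tumour cells within counting error. The remaining 5 large classes had between 0.911 and 5.29 CPM. Regulatory T cells stood at 10.4 CPM (4.49 to 20.5) and 5.94 CPM (3.63 to 9.18), from 8 and 20 UMIs, against 0.631 and 1.02 CPM in CD8 T cells.

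Since Tgfb1 and Tgfb2 were highest in different cells, the sequence around their transcription start is shown for both (RefSeq, build GRCm38.p6, 250 bases before to 50 after the annotated start, 5′ to 3′ on the gene's strand). Capitals mark matches on either strand to the Smad box CAGAC, the AP-1 element TGANTCA, the forkhead motif TGTTTAC or the TATA box TATAAA. The promoter of Tgfb1 lies at chr7:25686752-25687051 on the plus strand and that of Tgfb2 at chr1:186705940-186706239 on the minus strand.
Tgfb1: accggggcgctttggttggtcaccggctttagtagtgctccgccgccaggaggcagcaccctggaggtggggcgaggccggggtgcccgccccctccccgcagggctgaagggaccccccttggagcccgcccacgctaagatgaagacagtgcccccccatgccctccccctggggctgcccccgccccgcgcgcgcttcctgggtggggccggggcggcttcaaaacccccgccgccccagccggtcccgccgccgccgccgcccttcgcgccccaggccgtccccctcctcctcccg
Tgfb2: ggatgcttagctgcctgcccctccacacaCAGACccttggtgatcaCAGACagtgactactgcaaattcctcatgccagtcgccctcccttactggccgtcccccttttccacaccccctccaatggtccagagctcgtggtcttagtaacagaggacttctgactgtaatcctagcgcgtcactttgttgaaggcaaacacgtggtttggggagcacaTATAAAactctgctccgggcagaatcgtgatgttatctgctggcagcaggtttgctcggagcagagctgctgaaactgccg
The Tgfb1 window held 0 matches. The Tgfb2 window held 2 Smad boxes and 1 TATA box. Of 32851 promoter windows of the same length 49.6% hold a Smad box, 13.6% the TATA box, 7.81% the AP-1 element and 3.65% the forkhead motif. Counts from the 3' ends of transcripts do not tell which start was used, and a match describes letters only. The genes themselves lie in mm10 at chr7:25687002-25705077 (Tgfb1, plus strand), chr1:186622792-186705989 (Tgfb2, minus strand) and chr12:86056745-86079041 (Tgfb3, minus strand), by GENCODE M21.

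Both receptors were highest in microglia among the 6 large classes. Tgfbr1 (chr4:47353222-47414931, plus strand), the kinase that phosphorylates Smad2 and Smad3, stood in microglia at 868 CPM (824 to 914) and 1137 CPM (1113 to 1162). In monocytes and macrophages it had 329 CPM (312 to 346) and 420 CPM (406 to 434). Plasmacytoid dendritic cells, with 62 and 214 cells, had 315 CPM (270 to 366) and 563 CPM (535 to 593), so the order of these 2 classes turned between the libraries. Dendritic cells followed at 166 and 134 CPM, T cells at 78.4 and 88.8 CPM, tumour cells at 62.3 and 74.4 CPM and NK cells at 51.5 and 81.3 CPM. Neuroblasts had 200 CPM (147 to 267) under the wild type label, from 21 cells, and 89.1 CPM (71.8 to 109) under the knockout label.

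Tgfbr2 (chr9:116084293-116175360, minus strand), the receptor that binds the ligand first, had another order of classes. Microglia stood at 373 CPM (344 to 403) and 430 CPM (415 to 445). B cells had 484 CPM (398 to 583) and 388 CPM (363 to 415) and plasmacytoid dendritic cells 389 CPM (338 to 445) and 357 CPM (334 to 381). These 3 classes formed the top in both libraries, and under the wild type label the interval of microglia overlapped those of the others. NK cells had 225 and 216 CPM and T cells 204 and 184 CPM. Monocytes and macrophages had 98.7 and 96.2 CPM, tumour cells 48.2 and 58.2 CPM and dendritic cells 50 and 37.6 CPM. Oligodendrocytes and neuroblasts were nearly devoid of Tgfbr2, with 1 and 5 UMIs in oligodendrocytes and 0 and 3 in neuroblasts, although both had Tgfbr1.

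Transcripts of both receptors were detected together in 108 of 121 microglia (89.3%, exact binomial 95% interval 82.3 to 94.2) and 430 of 468 (91.9%, 89 to 94.2). In tumour cells the shares were 46.9% (43 to 50.7) and 52.8% (49.8 to 55.9), in spite of their greater depth. Plasmacytoid dendritic cells had 71% (58.1 to 81.8) and 87.9% (82.7 to 91.9), the latter with an interval that overlapped that of microglia. Monocytes and macrophages had 52.1% and 47.7%, T cells 24% and 29.6% and NK cells 21.6% and 23%. Oligodendrocytes had 0 of 32 cells, which allows up to 10.9%, and 2 of 96 (2.08%).

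**Figure D2:**
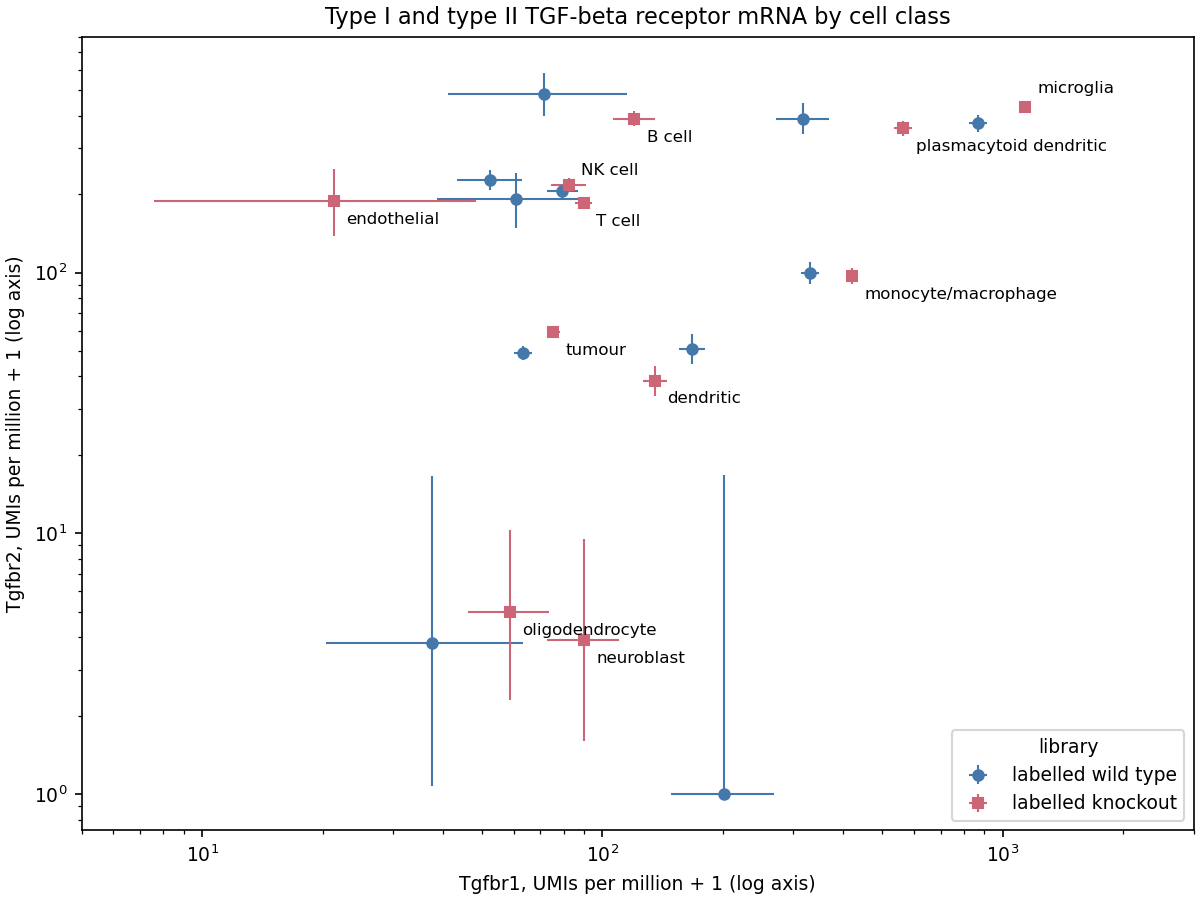
Tgfbr1 (horizontal axis) against Tgfbr2 (vertical axis) in 11 cell classes, as CPM plus 1 on log axes, with circles for the library labelled wild type, squares for the library labelled knockout and bars for exact Poisson 95% intervals. Microglia lie at the top right (1137 and 430 CPM under the knockout label), B cells high for Tgfbr2 alone, and oligodendrocytes and neuroblasts at the bottom with at most 4 CPM of Tgfbr2.

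Microglia and the monocyte/macrophage class were compared gene by gene within each library. Of the 6 genes measured there (at least 100 UMIs in the 2 classes in each library), Tgfbr1, Tgfbr2 and Smad7 were at least 1.5-fold higher in microglia in both libraries and Tgfbi was lower. Over all 6677 genes compared, 11.7% were higher and 7.61% lower in this way. Tgfbr1 was 2.64-fold and 2.71-fold higher in microglia, Tgfbr2 3.78-fold and 4.47-fold and Smad7 2.85-fold and 3.76-fold. Tgfbi was 1.66-fold and 2.56-fold lower. Tgfb1 was 1.38-fold and 1.6-fold lower and Itgav 1.39-fold and 1.3-fold higher, which did not reach 1.5-fold in both libraries. Monocyte/macrophage markers summed to 653 and 338 CPM within microglia, with 10 and 12 of the 12 markers detected, and their part in these values was not tested. The cells with both marker sets lay close to macrophages, with Tgfbr1 at 346 and 558 CPM, Tgfbr2 at 141 and 137 CPM and Tgfbi at 1444 and 1767 CPM.

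Microglia were not uniform for these genes. Clustering of all cells, done without the 9 genes, gave 2 microglia-like clusters, a cluster led by Csmd3, Sparc, Trem2 and Siglech (42 and 173 cells) and one led by C1qc, C1qa, Ccl12 and Ly86 (43 and 291 cells). Tgfbr1 stood at 1672 and 2162 CPM in the former and 1231 and 936 CPM in the latter. Tgfbr2 had 845 and 761 CPM against 494 and 393 CPM, and Smad7 646 and 571 CPM against 324 and 260 CPM. Tgfbi went the other way, with 7.1 CPM (0.86 to 25.6) and 25.6 CPM (18.1 to 35.1) in the former and 424 CPM (371 to 483) and 509 CPM (489 to 529) in the latter. In both libraries, then, the receptors and Smad7 were higher and Tgfbi lower in the cluster led by Csmd3. This describes clusters and carries no test.

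Both integrin subunits were highest in regulatory T cells. Itgav (chr2:83724397-83806916, plus strand), the alpha v chain shared by several integrins, stood in all T cells at 558 CPM (540 to 577) and 568 CPM (558 to 579). In regulatory T cells, gated as T cells with a Foxp3 UMI and none of Cd8a or Cd8b1, it had 1333 CPM (1253 to 1417) and 1188 CPM (1151 to 1225). Conventional CD4 T cells had 742 CPM (692 to 794) and 480 CPM (461 to 498), and CD8 T cells 289 CPM (270 to 308) and 322 CPM (307 to 336). The order of the 3 parts was the same in both libraries, with no overlap between their intervals. NK cells had 266 and 159 CPM, microglia 201 and 201 CPM, monocytes and macrophages 145 and 155 CPM and tumour cells 135 and 239 CPM. Neuroblasts had 1 and 8 Itgav UMIs.

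Itgb8 (chr12:119158022-119238802, minus strand), which pairs only with alpha v, was narrower. Regulatory T cells had 274 CPM (238 to 314) and 307 CPM (288 to 326). Conventional CD4 T cells had 61.6 CPM (47.9 to 78) and 48.6 CPM (42.9 to 54.9), and CD8 T cells 2.21 CPM (0.888 to 4.55) and 5.76 CPM (3.99 to 8.05). Regulatory T cells were thus highest of all gated classes in both libraries. Oligodendrocytes followed with 132 CPM (96.9 to 175) and 122 CPM (104 to 143), then neuroblasts with 59.7 and 71.7 CPM and tumour cells with 35.4 and 63.5 CPM. NK cells had 0 UMIs under the wild type label, an interval reaching up to 1.68 CPM, and 3.02 CPM under the knockout label. Monocytes and macrophages had 0 and 6 UMIs.

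Because the 2 chains of the activating integrin were high together in regulatory T cells, their promoter windows are printed with the same marking. That of Itgav lies at chr2:83724147-83724446 on the plus strand and that of Itgb8 at chr12:119238227-119238526 on the minus strand. The Itgb8 window lies wholly inside the span of the gene given above, because the RefSeq start is downstream of the GENCODE M21 start.
Itgav: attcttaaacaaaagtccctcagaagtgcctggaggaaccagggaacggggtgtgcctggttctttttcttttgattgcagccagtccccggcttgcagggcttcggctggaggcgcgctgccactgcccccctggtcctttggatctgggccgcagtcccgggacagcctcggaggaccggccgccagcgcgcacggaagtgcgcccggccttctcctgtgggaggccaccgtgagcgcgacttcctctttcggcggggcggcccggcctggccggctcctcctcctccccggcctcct
Itgb8: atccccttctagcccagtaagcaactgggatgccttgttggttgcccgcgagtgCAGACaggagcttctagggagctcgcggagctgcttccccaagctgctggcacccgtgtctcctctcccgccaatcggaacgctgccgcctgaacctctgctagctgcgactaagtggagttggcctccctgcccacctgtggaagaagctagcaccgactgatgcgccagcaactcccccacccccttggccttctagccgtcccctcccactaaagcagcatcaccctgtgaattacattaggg
The Itgav window held 0 of the 4 motifs and the Itgb8 window 1 Smad box. RefSeq windows were matched for 7 of the 9 genes, the exceptions being Tgfb3 and Smad7. Of those not printed, the windows of Tgfbr2 and Tgfbi held 1 and 2 Smad boxes, and the 2 windows of Tgfbr1 held 0 and 1.

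Both chains were detected in the same cell in 48 of 81 regulatory T cells (59.3%, 47.8 to 70.1) and in 162 of 264 (61.4%, 55.2 to 67.3). Of conventional CD4 T cells 15.7% (9.89 to 23.3) and 11.5% (8.84 to 14.5) had both, of CD8 T cells 1.01% (0.209 to 2.92) and 1.69% (0.731 to 3.3), and of NK cells 0 of 259 and 0.482%. NK cells serve here as the class at background for Itgb8. In tumour cells the share was 44.9% (41.1 to 48.8) and 60.5% (57.5 to 63.5), with medians of 30987 and 26406 UMIs per cell against 7050 and 9570 in regulatory T cells. With every cell thinned to 2000 UMIs, Itgb8 was detected in 37.2% and 33.3% of regulatory T cells, 7.94% and 5.72% of conventional CD4 T cells, 0.676% and 0.424% of CD8 T cells and 7.03% and 13.5% of tumour cells. Lrrc32, whose protein GARP tethers latent TGF-beta to the surface of regulatory T cells, stood there at 49.4 and 64.5 CPM against 11.6 and 9.98 CPM in conventional CD4 T cells. Itgb8 and Lrrc32 were detected together in 17 of 81 (21%) and 82 of 264 (31.1%) regulatory T cells and in 0 of 297 and 3 of 474 CD8 T cells. Lrrc32 was chosen after its values were seen.

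**Figure D3:**
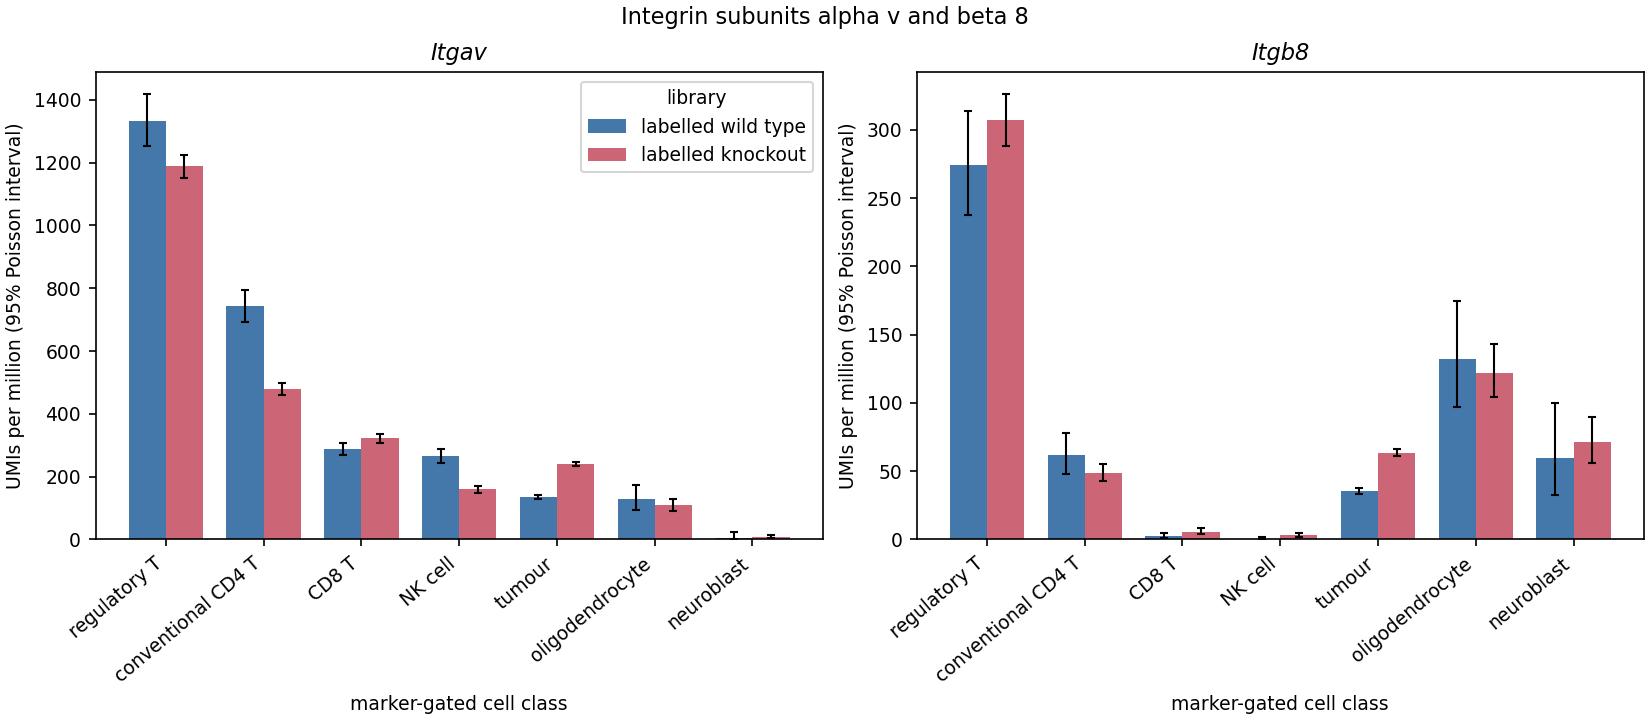
Levels of Itgav (left) and Itgb8 (right) in CPM in 7 cell classes, with 1 bar per library and exact Poisson 95% intervals. Regulatory T cells are highest for both, at 1333 and 1188 CPM and at 274 and 307 CPM, while CD8 T and NK cells have Itgav with 5.76 CPM of Itgb8 or less.

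Regulatory and conventional CD4 T cells were compared in each library over all 3537 genes with enough UMIs. Of the 6 genes measured, 3 were at least 1.5-fold higher in regulatory T cells in both libraries, against 5.06% of all genes, and 1 was lower, against 5.4%. Itgb8 was 4.45-fold and 6.31-fold higher, Tgfbr1 3.55-fold and 2.34-fold, and Itgav 1.8-fold and 2.48-fold. Tgfbr2 was 1.52-fold and 2.23-fold lower, at 92.2 and 81.7 CPM in regulatory against 140 and 182 CPM in conventional CD4 T cells. The type I and the type II receptor therefore differed in opposite directions. Tgfb1 was near equal (1.14-fold and 1.01-fold lower), and Smad7 was 1.16-fold and 1.51-fold higher. Against CD8 T cells 4 of 7 genes were higher in both libraries (9.25% of all 5646 genes) and 1 was lower (5.42%). Itgav was 4.62-fold and 3.69-fold higher, Tgfbr1 2.29-fold and 3.42-fold and Smad7 1.63-fold and 1.67-fold, Itgb8 was 124-fold and 53.2-fold higher from 7 and 34 UMIs in CD8 T cells, and Tgfbr2 was 2.59-fold and 2.69-fold lower. The gate needs a Foxp3 UMI. Regulatory T cells without one were counted with the conventional CD4 T cells if they had a Cd4 UMI and none of Cd8a or Cd8b1. T cells that met none of these rules were left out of these comparisons and counted only in the whole T cell class.

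NK cells and T cells differed in the ligand and the integrin. Of 7 genes measured, Tgfb1 was higher in NK cells in both libraries, by 2.47-fold and 2.76-fold, where 5.73% of all 7901 genes were higher. Itgav was lower by 2.1-fold and 3.58-fold, where 9.86% of all genes were lower in both libraries. Itgb8 was lower as well, with 0 UMIs in NK cells (up to 1.68 CPM) against 62.8 CPM in T cells under the wild type label and a 29.5-fold gap under the knockout label. Tgfbr2 and Smad7 differed by at most 1.18-fold between the 2 lymphocyte classes in either library.

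Smaller classes within the myeloid cells were also set against each other. Type 1 dendritic cells had more of 4 of the 6 measured genes than migratory dendritic cells in both libraries, namely Tgfb1, Tgfbr1, Tgfbr2 and Smad7, but 27% of all 4975 genes were higher in this comparison and 18.1% lower. Tgfbr2 showed the widest gap, with 59.5 and 56.7 CPM against 17.1 CPM (9.55 to 28.1) and 8.28 CPM (4.98 to 12.9). Itgav, at 90.7 and 90.2 CPM against 85.3 and 97.2 CPM, was near equal. Monocytes had less Itgav (1.62-fold and 1.51-fold) and Smad7 (1.91-fold and 1.57-fold) than macrophages, 2 of 6 genes where 6.26% of 4793 were lower, and 0 of 6 were higher where 7.64% of all genes were.

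Smad7 (chr18:75367529-75395935, plus strand), the inhibitor that Smad signalling induces against its own receptors, was spread over most classes. Oligodendrocytes had 356 CPM (297 to 424) and 285 CPM (256 to 316), and microglia 267 CPM (243 to 293) and 294 CPM (281 to 307). T cells had 231 and 202 CPM and NK cells 199 and 231 CPM, neighbours whose order turned between the libraries. Regulatory T cells had 313 and 268 CPM, with an interval that overlapped that of conventional CD4 T cells (269 CPM) under the wild type label. Dendritic cells had 150 and 114 CPM, monocytes and macrophages 93.9 and 78.1 CPM, and tumour cells 35.2 and 38.7 CPM, the lowest of the 6 large classes in both libraries. Oligodendrocytes thus combined the highest or next highest Smad7 level with at most 4 CPM of Tgfbr2.

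Tgfbi (chr13:56609523-56639562, plus strand), which encodes a secreted matrix protein and takes its name from its induction by TGF-beta, was highest in monocytes and macrophages. Monocytes and macrophages had 1511 CPM (1475 to 1548) and 1574 CPM (1547 to 1602), with a UMI in 98.8% and 97.4% of the cells. Monocytes (1498 and 1436 CPM) and macrophages (1434 and 1780 CPM) were within 1.24-fold of each other. Microglia had 913 CPM (868 to 960) and 615 CPM (597 to 634), but with a UMI in only 57% and 52.1% of the cells. In lymphocytes Tgfbi UMIs were few and concentrated, with 196 and 600 UMIs in 36 of 638 and 107 of 1630 T cells. The tumour had 11 CPM (9.63 to 12.4) and 12.1 CPM (10.9 to 13.4), the lowest of the 6 large classes in both libraries.

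For each gene the 3 genes most like it over 11 classes in both libraries were sought among 10610, by Pearson's r of log2(CPM + 1) over 22 points, which share 2 libraries and their depths. The closest were Gpsm3, Fxyd5 and Tnfrsf1b for Tgfb1 (r from 0.944 to 0.975), Slc38a3, Ramp2 and Lamb1 for Tgfb2 (0.954 to 0.970), Calhm2, Sp100 and Agpat2 for Tgfbr2 (0.932 to 0.962) and Adgb, Clec5a and C1qc for Tgfbi (0.938 to 0.945). The others had looser partners, namely Megf9, Fbxo44 and Wdr35 for Tgfb3 (0.848 to 0.863), Nectin4, Nfam1 and Fhad1 for Tgfbr1 (0.877 to 0.889), Aldoa, Parp10 and Gbp9 for Itgav (0.843 to 0.864), Bcat1, Bdh1 and Grik5 for Itgb8 (0.872 to 0.891), and Rab37, Fnbp1 and Pdlim2 for Smad7 (0.823 to 0.845). These r are descriptions of the class profile.

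Differences between the labels were then read for every gene with at least 100 UMIs in a class, 40 pairs of gene and class, and called by size alone where the levels were at least 1.5-fold apart. Of the 40 pairs 5 were higher and 2 lower under the knockout label. None of the 7 calls held under all 11 alternatives, partly because thinned cells left Tgfb2 and Tgfbi too few UMIs in the classes concerned. Tumour cells had 3 of 9 genes higher, Tgfb2, Itgav and Itgb8, where 10.8% of all 12560 genes were higher, and 0 lower, where 7.29% were. NK cells had Tgfbr1 and Tgfbi higher and Itgav lower among 6 genes, where 7.48% of 7068 genes were higher and 7.22% lower. Dendritic cells had Tgfbi lower and 0 higher among 6, where 7.29% of 7790 genes were lower and 7.41% higher. Itgb8 had too few UMIs in dendritic cells to be among these 6, namely 4 and 33. It stood there at 0.949 and 5.72 CPM, a log2 ratio of 2.59 (1.10 to 4.55). Its UMIs came from 4 of 288 and 12 of 394 cells. Itgb8 in dendritic cells was called with a minimum of 30 UMIs (2.59) and with clusters in place of the gate (1.90). No gene was called among 6 in microglia (5.99% higher and 5.61% lower of 8093 genes), among 6 in monocytes and macrophages (6.15% and 5.22% of 8245) or among 7 in T cells (4.8% and 2.58% of 10264). The median log2 ratio of the measured genes was 0.55 in tumour cells, where it was 0.01 over all genes, and between -0.36 and 0.35 in the other classes.

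In tumour cells, Tgfb2 stood at 4.61 and 13 CPM, a log2 ratio of 1.5 (1.18 to 1.82). Itgav stood at 135 and 239 CPM (0.82, 0.76 to 0.89) and Itgb8 at 35.4 and 63.5 CPM (0.84, 0.72 to 0.96). Tgfb1 and Tgfb3 lay just under the limit, each with a log2 ratio of 0.55, as 4.3 and 6.28 CPM and 13.1 and 19.1 CPM. Tgfb1 was past it with clusters in place of the gate (1.05) and with tumour clusters weighted alike (0.69). Without the cells of highest doublet score it fell to 0.24. Tgfbr1 (0.26), Tgfbr2 (0.27), Smad7 (0.14) and Tgfbi (0.15) differed less. With each cell counted alike Tgfbi was called at 0.75. Markers of other cells in tumour-gated cells moved too: monocyte/macrophage markers summed to 86.1 and 114 CPM with 11 and 12 of 12 detected, T cell markers to 6.21 and 12.9 CPM with 8 of 8 detected in both, and oligodendrocyte markers to 125 and 35.4 CPM with 8 of 8 detected in both. The part of such cells in these ratios was not tested.

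Tumour-gated cells fell into clusters whose sizes differed between the libraries. A cluster led by Gpnmb and Col11a1 held 54 tumour-gated cells in the library labelled wild type and 381 in that labelled knockout, while a cluster led by Cdh18 and Cadm2 held 251 and 104. In the Gpnmb cluster Tgfb2 stood at 27.4 CPM (17.6 to 40.8) and 32.1 CPM (28.5 to 36), Itgav at 382 CPM (342 to 425) and 387 CPM (374 to 400), and Itgb8 at 117 CPM (95 to 141) and 108 CPM (101 to 115). These were the highest tumour levels of the 3 genes in both libraries, and the 2 labels overlapped there. In the cluster led by Nkain2 and Nav3 (241 and 419 cells) Tgfb2 stood at 2.75 CPM (1.68 to 4.25) and 8.32 CPM (6.83 to 10), which did not overlap. Itgav there stood at 154 CPM (145 to 163) and 198 CPM (191 to 206), also without overlap. Itgb8 there stood at 51.1 CPM (46.1 to 56.6) and 55.1 CPM (51.1 to 59.2), which overlapped. In the Cdh18 and Cadm2 cluster Tgfb2 had 5.6 CPM (4.13 to 7.43) and 3.18 CPM (1.59 to 5.7), which overlapped. Without overlap were Itgav at 116 CPM (109 to 124) and 168 CPM (155 to 182) and Itgb8 at 23.6 CPM (20.4 to 27.1) and 47.8 CPM (40.7 to 55.6). A cluster led by Cdh18 and Moxd1 (112 and 116 cells) had Itgav at 103 CPM (94.9 to 112) and 161 CPM (151 to 171), without overlap. Tgfb2 (1.04 and 1.61 CPM) and Itgb8 (20.7 and 27.3 CPM) overlapped there. Each tumour cluster with at least 20 gated cells per library was then given the same weight in both libraries, its UMIs over both. With these weights, an alternative added once the data had been seen, the log2 ratios fell to 0.42 for Tgfb2, 0.31 for Itgav and 0.18 for Itgb8. All 3 were under the 1.5-fold limit and near Smad7 (0.30) and Tgfbr1 (0.23). With each cell counted alike they were 0.60, 0.79 and 0.44, and Itgb8 was then not called.

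**Figure D4:**
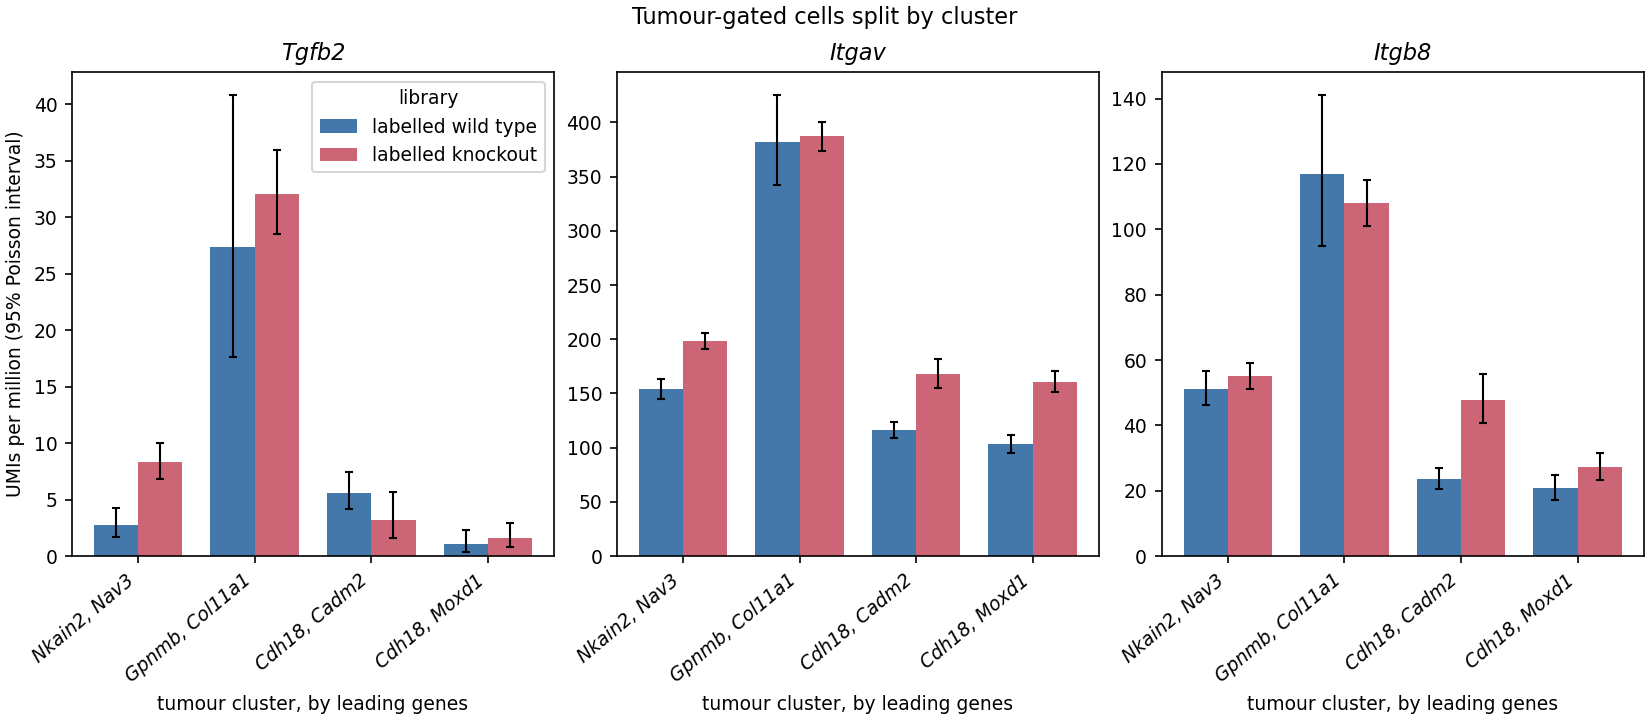
Levels of Tgfb2, Itgav and Itgb8 in CPM in the 4 tumour clusters with at least 50 gated cells in each library, named by their leading genes, with 1 bar per library and exact Poisson 95% intervals. The cluster led by Gpnmb and Col11a1 is highest for all 3 genes, with Itgav at 382 and 387 CPM, and held 54 and 381 cells.

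In NK cells Itgav stood at 266 and 159 CPM (log2 ratio -0.74, -0.90 to -0.58), and its share of cells with a UMI was 51.7% and 42.8%. With clusters in place of the gate the ratio was -0.52, under the limit. Tgfbr1 stood at 51.5 and 81.3 CPM (0.66, 0.35 to 0.98), from 113 and 377 UMIs. Tgfbi stood at 19.6 and 39.9 CPM (1.03, 0.54 to 1.54), but its UMIs came from 14 of 259 and 25 of 622 cells, shares of 5.41% and 4.02% that went against the CPM. Without the cells of highest doublet score neither Tgfbr1 (0.42) nor Tgfbi in NK cells was called, the latter having too few UMIs left. With clusters Tgfbr1 was at 0.35, and the NK cluster had 7.94 and 4.95 CPM of Tgfbi, from 15 and 25 UMIs. Monocyte/macrophage markers, some of which NK cells express themselves, summed to 550 and 873 CPM in NK cells with 10 and 11 of 12 detected, and their part was not tested. Tgfb1 was 1.39-fold higher under the knockout label in NK cells, below the limit.

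In dendritic cells Tgfbi stood at 61 CPM (53.7 to 68.9) and 31.7 CPM (27.3 to 36.7), a log2 ratio of -0.94 (-1.22 to -0.66). The class differed in make-up, with type 1 dendritic cells at 51% and 33.8% and migratory dendritic cells at 34% and 56.1% of it. Type 1 dendritic cells had 51.6 and 30.4 CPM and migratory dendritic cells 34.1 and 20.9 CPM of Tgfbi. With classes taken from clusters in place of the gate the ratio turned to 0.17. This takes in a cluster led by Ccl17 and Plet1 (125 and 253 cells), of which only 37.8% were gated as dendritic. Tgfbi stood there at 154 and 145 CPM, and what the other cells of this cluster are was not tested. The ratio was -0.45 with each cell counted alike and -0.35 among cells with Y-linked and no Xist UMIs.

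In microglia Tgfbi stood just under the limit at 913 and 615 CPM (log2 ratio -0.57, -0.65 to -0.48), beside monocyte/macrophage markers that were also lower there under the knockout label, at 653 and 338 CPM. With clusters the direction turned, to 0.49, and among cells with Y-linked and no Xist UMIs the ratio was -0.17. Tgfbr1 was 1.31-fold higher in microglia and 1.28-fold higher in monocytes and macrophages under the knockout label, and 1.61-fold higher in the cells with both marker sets. In microglia this also turned with clusters, to a log2 ratio of -0.18 in place of 0.39, and was 0.70 among cells with Y-linked and no Xist UMIs. Within the monocyte/macrophage class Tgfbr1 had 352 and 550 CPM in macrophages and 358 and 339 CPM in monocytes. In T cells Itgb8 was 1.42-fold higher, at 62.8 and 89 CPM, while the levels within regulatory T cells (274 and 307 CPM) and conventional CD4 T cells (61.6 and 48.6 CPM) had no common direction. Regulatory T cells were 12.7% (10.2 to 15.5) of T cells in the first library and 16.2% (14.4 to 18.1) in the other, and CD8 T cells 46.6% and 29.1%. These parts and the remaining T cells were also given the same weights in both libraries, a choice made after seeing the data. The log2 ratio of Itgb8 in T cells was then 0.04 in place of 0.50. It was past the limit with clusters (0.62), among cells with Y-linked and no Xist UMIs (0.64) and after thinning (0.59).

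**Figure D5:**
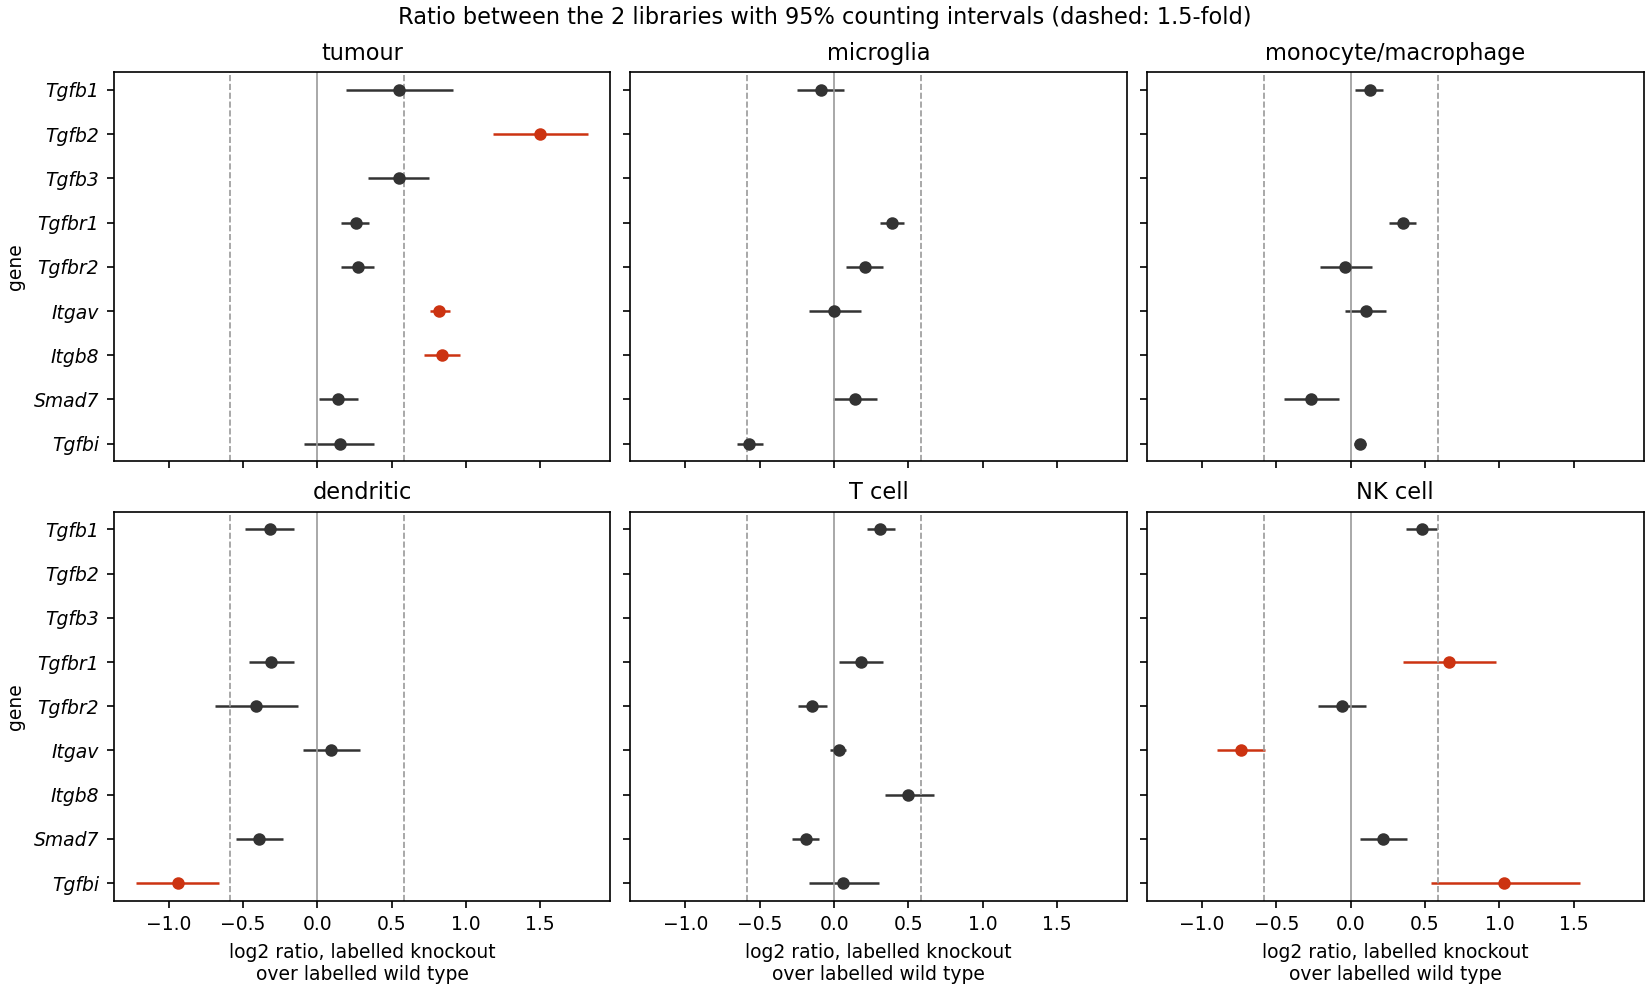
Log2 ratio of the level under the knockout label over that under the wild type label (horizontal axis) for each measured gene (vertical axis), with 1 panel for each of 6 cell classes and bars for exact 95% counting intervals. Dashed lines mark 1.5-fold and red points the 7 called pairs, of which Tgfb2 in tumour cells lies furthest out at 1.5.

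The other genes of the pathway were read from 3 lists, which were chosen with earlier results of these data known. The first holds 18 genes that store, present or activate latent TGF-beta. Of 49 measured pairs of gene and class 7 were higher and 5 lower under the knockout label, where per class 4.8% to 10.8% of all genes were higher and 2.58% to 7.29% lower. In tumour cells 5 of 12 were higher, Ltbp3, Itgb5, Mmp14, Mmp2 and Emilin1, and 0 lower, with a median log2 ratio of 0.29 against 0.01 over all genes, of which 10.8% were higher. With tumour clusters weighted alike 1 of these 5, Mmp14, was still called. In microglia 4 of 9 were lower, Thbs1, Mmp14, Mmp2 and Emilin1, with a median of -0.39, where 5.61% of all genes were lower. With clusters in place of the gate, and among cells with Y-linked and no Xist UMIs, 0 of the 4 were called. Mmp14, a membrane-bound protease, stood at 3.15 and 6.81 CPM in tumour cells and 240 and 158 CPM in microglia. Furin, the protease that cleaves the TGF-beta precursor, stood at 63.4 and 125 CPM in T cells (1.97-fold higher) and at 224 and 148 CPM in monocytes and macrophages (1.52-fold lower, a call lost with clusters). In T cells Furin was not called among cells with Y-linked and no Xist UMIs, nor after thinning. Itgb5, the beta 5 partner of Itgav, was highest in microglia among the 4 classes where it was measured, at 677 and 731 CPM, and was 1.7-fold higher in tumour cells at 12.1 and 20.6 CPM. Itgb1, the beta 1 partner, differed by at most 1.46-fold in any class, with 476 and 696 CPM in NK cells.

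Nrros, which tethers latent TGF-beta on microglia and other myeloid cells and was chosen after its values were seen, stood at 188 and 191 CPM in microglia, 154 and 191 CPM in monocytes and macrophages and 2 and 2.54 CPM in tumour cells. B cells (321 and 210 CPM) and plasmacytoid dendritic cells (286 and 243 CPM) had it too. Lrrc32, by contrast, had 0 UMIs in microglia in both libraries. Ltbp1, a matrix anchor of the latent complex, had 23.3 and 20.4 CPM in tumour cells and at most 1.73 CPM in the other 5 large classes, and was also chosen after its values were seen.

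Of 22 genes of Smad signalling, 8 of 100 measured pairs were higher and 2 lower, which is near the shares of all genes per class (4.8% to 10.8% higher and 2.58% to 7.29% lower). Tumour cells had Smad3, Tgif1, Pmepa1 and Ldlrad4 higher and Bambi lower among 18, with a median log2 ratio of 0.01, the same as over all genes. Ldlrad4, an inhibitor of Smad2 and Smad3 phosphorylation, was higher under the knockout label in 3 of 6 classes. It stood at 48.4 and 81.5 CPM in tumour cells, 663 and 1048 CPM in microglia and 114 and 287 CPM in monocytes and macrophages, the last a log2 ratio of 1.33 (1.19 to 1.47). The call in tumour cells was lost with tumour clusters weighted alike and the call in microglia with clusters in place of the gate. In dendritic cells it had 94.4 and 82.6 CPM. Pmepa1, a target that also restrains Smad signalling, stood at 160 and 295 CPM in tumour cells (1.84-fold higher) and 204 and 307 CPM in NK cells (1.5-fold, a call lost with clusters), and was within 1.07-fold in the other 4 classes. Skil and Usp15 were called in none of 6 classes.

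Of 26 genes that respond to TGF-beta, 16 of 85 measured pairs were higher and 8 lower, where per class 4.8% to 10.8% of all genes were higher and 2.58% to 7.29% lower, and the list shares Pmepa1, Ldlrad4 and others with the signalling genes. Id1, which BMP and TGF-beta signals induce, was lower under the knockout label in 3 of the 3 classes where it was measured. It stood at 93.2 and 43.1 CPM in tumour cells (log2 ratio -1.11, -1.21 to -1.01), 21.6 and 11.5 CPM in microglia, a call lost with clusters, and 23.5 and 12.9 CPM in monocytes and macrophages. Id2 and Junb, which had the most UMIs of the list with Pmepa1 and Ldlrad4, were called in none of 6 classes, the widest differences being Id2 in dendritic cells at 968 and 716 CPM and Junb in NK cells at 776 and 1016 CPM. In tumour cells the list went both ways, with 8 of 20 higher, where 10.8% of all genes were, and 4 lower, where 7.29% were, and a median of 0.25. With tumour clusters weighted alike 7 of these 12 were still called.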

How the data were processed

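Both libraries were made with the 10x Genomics 3' v3.1 kit from brain tissue taken apart with a neural dissociation kit, per the labels' protocols. The authors deposited unnormalized UMI counts per gene and barcode. The submitters' processing notes name Cell Ranger 7.1.0, Seurat 5.0.2 and the build mm10, without the role of each. The tables list 68886 features, of which the 32285 mouse genes were used. The members and gene lists were chosen with earlier results of these data known.

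A cell had to show 500 or more mouse genes and no more than 10% of its UMIs from mitochondrial genes, which removed 3990 and 1239 barcodes for few genes and 282 and 555 for mitochondrial UMIs. A cell was given the class with the highest share of markers with a UMI, if at least 3 markers were found and the share was at least 1.5 times the next. CD8, conventional CD4 and regulatory T cells were separated by Cd8a, Cd8b1, Cd4 and Foxp3. Dendritic and monocyte/macrophage parts needed 2 markers. The class names are rebuilt from markers. UMIs were summed per class and library and divided by the class's mouse UMIs (CPM). With 1 library per label nothing was tested: a gene with at least 100 UMIs in the class was called where the CPM were at least 1.5-fold apart, a count of 0 was set to a floor of 3 in a ratio, and intervals are exact at 95%. Doublets were kept in the values given. Scrublet's automatic threshold marked 0.289% and 2.49% of cells. An alternative did not use this threshold and left out the 77 (2.48%) and 346 (5.26%) cells of highest doublet score. These numbers were set by an expected doublet rate that grows with the number of cells, so the larger library lost a larger share. Thinning to 2000 UMIs left out 66 and 196 shallower cells. No deposited column was left unmapped.

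The genes named from the lists are the 4 with the most UMIs per list and those past 1.5-fold in the same direction in 3 or more classes, with exceptions marked in the text. Other alternatives changed the filter on genes per cell, the classes (Leiden clusters), the scaling, the weight of cells, the sex-linked RNA of host cells and the UMI minimum. The intervals were tried on Poisson counts simulated for 12560 genes from the pooled means of tumour cells, where they held the true ratio for 95.6% of genes. Such counts carry no added variation between cells or animals, so this checks the calculation only. Clustering used scanpy 1.11.5 with leidenalg 0.10.2, intervals came from scipy 1.17.1, and tables were handled with pandas 2.3.3 in Python 3.11.15.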

Additional observations from a re-analysis of the deposited data

Results flagged for a closer look

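Itgav had a log2 ratio of 0.82 between the labels in tumour cells and of -0.74 in NK cells, so the direction was opposite in these classes. With clusters in place of the gate the NK value was -0.52, and with tumour clusters weighted alike the tumour value was 0.31, both under the 1.5-fold limit. Tgfbi had a log2 ratio of 1.03 in NK cells and of -0.94 in dendritic cells. Neither value was stable. Without the cells of highest doublet score, and with clusters, Tgfbi in NK cells had too few UMIs to be measured. With clusters the dendritic value turned to 0.17. Each class is 1 library per label, and the difference between classes was not tested.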

How the results depend on the processing

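The number of called pairs, 7, became between 5 and 9 under 11 alternatives (2 chosen after seeing the data), but the pairs themselves changed. With clusters in place of the gate 3 of the 7 were kept, all in tumour cells, and 5 were new. With each cell counted alike 3 were kept and 3 were new, after thinning to 2000 UMIs 3 and 3, and among host cells with Y-linked and no Xist UMIs 5 and 4, with Tgfbi in T cells at -1.77 there and at 1.22 with clusters. Tumour clusters weighted alike kept 4, with 1 new, and leaving out the cells of highest doublet score kept 5. Of the 40 measured pairs 17 changed direction under at least 1 alternative, 10 of them with a counting interval that did not hold 0. Among the called pairs this was Tgfbi in dendritic cells, 0.17 with clusters. Among the others, with clusters, Tgfbi in microglia went from -0.57 to 0.49, Tgfbr1 in microglia from 0.39 to -0.18, Tgfbr2 in microglia from 0.21 to -0.36 and Tgfb1 in dendritic cells from -0.32 to 0.01. Tgfbr1 in dendritic cells went from -0.31 to 0.47 among cells with Y-linked and no Xist UMIs, of which there were 257 and 44. Values under the alternatives are given without intervals. The causes were not tested.

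Thinned to 2000 UMIs, the activation list had 6 called pairs in place of 12 and the response list 12 in place of 24, with fewer pairs measured. The response list had 39 with a minimum of 30 UMIs, which measures more pairs. The signalling list had 16 in place of 10 among host cells with Y-linked and no Xist UMIs. The activation list had 8 higher and 0 lower with clusters and 3 higher and 5 lower with tumour clusters weighted alike, in place of 7 and 5. The highest class was the same in both libraries for 9 of 9 genes, and for 8 after thinning, where Tgfb3 under the wild type label was highest in monocytes and macrophages. No paired analysis was possible because there is 1 library per label. Low counts limit Tgfb2 and Tgfb3 outside the tumour and all genes in classes of under 100 cells.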
